A study of Mus musculus with 24 samples.

Results

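Txnip, its arrestin relatives Arrdc1, Arrdc2, Arrdc3 and Arrdc4, and the glucose-sensing transcription factors Mlxip, Mlxipl and Mlx were followed in mouse tibialis anterior (TA) muscle after 830 nm photobiomodulation therapy (PBMT) and treadmill fatigue. These 8 genes of the 55487 listed were chosen by family and role and were also selected on measured values, their expression in the 4 groups of mice and both comparisons of PBMT with control. Their levels and fold changes are therefore a description and carry no test. All 8 were among the 15108 genes that passed the filter on low counts.

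Txnip (thioredoxin-interacting protein) binds reduced thioredoxin and brings glucose transporters of the cell surface into endocytosis, and so lowers glucose uptake into muscle and fat. The ARRDC proteins share its arrestin fold and act as adaptors that link membrane cargo to ubiquitin ligases of the Nedd4 family. Mlxip (MondoA), the main Mondo factor of skeletal muscle, and its relative Mlxipl (ChREBP) pair with Mlx, enter the nucleus when glucose 6-phosphate accumulates, and switch on Txnip and Arrdc4.

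The study asked how near-infrared light given before exercise acts on muscle. RNA from the left TA of wild-type (WT) male C57BL/6J mice, 5 to 7 weeks old, was sequenced in 4 groups of 6 mice, each mouse a separate sample. Mice of the sedentary PBMT group received 830 nm light from LED panels on shaved lower limbs under anesthesia, with an irradiance of 25 mW/cm2 that reached 30 J/cm2 within 20 min. Their muscle was taken 24 h later, and sedentary control mice had the same preparation and anesthesia without light. Fatigued PBMT and fatigued control mice were prepared in the same ways and then ran on a treadmill to exhaustion, for durations that differed between mice, before the muscle was dissected. Sedentary and fatigued mice were sequenced as separate projects, so exercise and sequencing project cannot be told apart in any comparison of fatigued with sedentary mice.

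The deposited counts of a mouse summed to between 43271093 and 46904076 in sedentary control, from 46327516 to 52775844 in sedentary PBMT, from 56792327 to 68726155 in fatigued control and from 53122528 to 68566029 in fatigued PBMT mice. Levels are in CPM, counts per megacount of the TMM-normalized total of a mouse, and between genes in RPKM, the CPM per kilobase of exon. At this depth the rarest member, Arrdc1, still had 63 to 184 counts per mouse and Txnip 18516 to 41098. The muscle label held in the levels: 8 markers of muscle fibers summed to group means of 106000 to 144000 CPM, against 242 to 301 CPM for 5 endothelial markers. The sedentary control mouse with replicate number 4 stood apart from its group, at a root mean square distance of 0.501 log2 CPM from the group mean over all genes past the filter, against 0.304 to 0.339 for the other 5. The fatigued PBMT mouse with number 5 stood at 0.509, against 0.316 to 0.407 in its group. In bulk muscle, fewer cells of a type and less RNA per cell cannot be told apart.

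Per kilobase, Txnip was the most abundant of the 8 genes in every group, with mean levels of 152 ± 33.3 RPKM in sedentary control, 236 ± 15.0 in sedentary PBMT, 162 ± 17.7 in fatigued control and 189 ± 33.4 in fatigued PBMT mice (SD, n = 6 each). In sedentary control mice the order of mean RPKM below Txnip was Arrdc2 (44.7 ± 9.84), Arrdc3 (14.6 ± 2.65), Mlxip (13.5 ± 1.26), Mlxipl (7.97 ± 0.609), Mlx (4.40 ± 0.483), Arrdc4 (1.98 ± 0.513) and Arrdc1 (0.857 ± 0.216). Of these neighbors in RPKM, Arrdc3 and Mlxip were the pair whose ranges over mice met. In the other 3 groups Mlxip stood above Arrdc3 in mean RPKM, and the ranges of Arrdc2, Mlxip and Arrdc3 each met that of the next gene, which for Arrdc3 was Mlxipl. Txnip stayed clear of Arrdc2 in RPKM in all 4 groups, and Mlx, Arrdc4 and Arrdc1 kept their places without touching the range above. A gene on the opposite strand, Gm15441, spans the whole of Txnip (3927 bp), and the strand setting of the counting is not given in the sources used here. Gm15441 was listed at a mean of 0.775 CPM.

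Txnip (ENSMUSG00000038393, chr3:96557957-96561883 on the plus strand, GRCm38) was measured at 393 CPM in the lowest, 455 at the median and 674 in the highest of the 6 sedentary control mice. With PBMT in sedentary mice the lowest, median and highest levels of Txnip were 672, 733 and 802 CPM. All 6 sedentary mice given PBMT thus lay high and close together, 5 of them above every control, and the groups met only because the control with number 4, at 674 CPM, reached the lowest PBMT mouse. The mean level was 476 ± 104 CPM in sedentary control and 737 ± 46.8 CPM in sedentary PBMT mice (SD, n = 6), a fitted log2 fold change of 0.64 (SE 0.109), or 1.56-fold. Without that control mouse, which was also the one far from its group over all genes, the log2 fold change of Txnip was 0.76. Without sedentary control mouse 2 it was 0.59, the lowest value with 1 mouse left out.

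In fatigued mice Txnip ran from 417 CPM through a median of 506 to 585 in the controls, and from 407 through 606 to 720 CPM with PBMT. Here 4 of the 6 PBMT mice lay above every control and 1 lay below every control, so the groups overlapped. The log2 fold change of Txnip with PBMT was 0.23 (SE 0.116) in fatigued mice, at means of 505 ± 55.3 and 589 ± 104 CPM. Without the lowest of the fatigued PBMT mice, number 1 at 407 CPM, the log2 fold change was 0.31, and without the highest, number 2, it was 0.16. Ordered by mean CPM, Txnip was lowest in sedentary control, then fatigued control, fatigued PBMT and highest in sedentary PBMT mice, and each group overlapped the next. Fatigued control mice differed from sedentary control mice by a log2 fold change of 0.09 (SE 0.119), which was 0.21 without sedentary control mouse 4 and 0.04 without sedentary control mouse 2. Fatigued PBMT differed from sedentary PBMT mice by −0.32 (SE 0.119), with 5 of 6 fatigued mice below every sedentary one. The 2 PBMT effects differed by −0.41 (SE 0.168), fatigued minus sedentary, on the log2 scale.

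**Figure D1:**
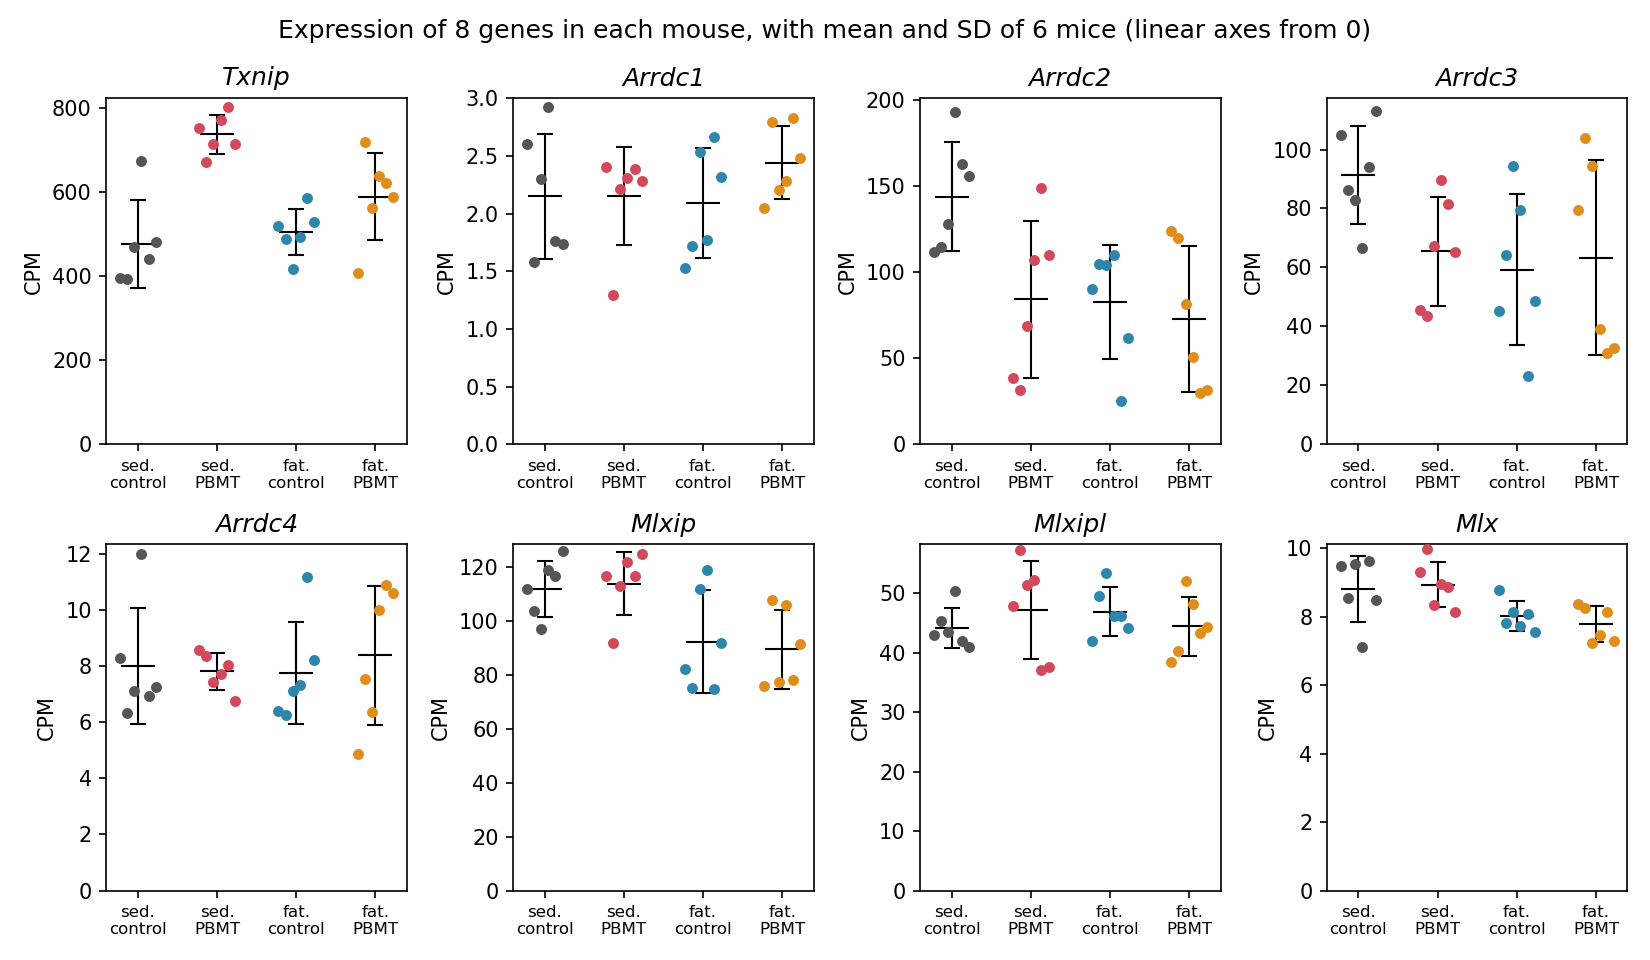
CPM of the 8 genes in each mouse (points, 1 per mouse, colored by group) with the mean and SD of 6 mice (black bars); every vertical axis is linear and starts at 0. Txnip in sedentary PBMT mice lies between 672 and 802 CPM, with 1 sedentary control mouse reaching that range at 674 CPM. Arrdc2 and Arrdc3 spread more widely within the other groups than within sedentary control mice.

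Arrdc2 (ENSMUSG00000002910, chr8:70835129-70839720, minus strand), an alpha-arrestin that responds to feeding state and hormones in muscle, ran the other way in sedentary mice. Sedentary control mice had 112 CPM of Arrdc2 in the lowest, 142 at the median and 193 in the highest mouse, and sedentary PBMT mice 31.7, 87.9 and 149 CPM. Of the PBMT mice 5 of 6 lay below every control, and mouse 5 of that group, the highest at 149 CPM, lay among the controls. The log2 fold change was −0.77 (SE 0.338), from 144 ± 31.8 to 84.2 ± 45.8 CPM. It was −1.02 without mouse 5 and −0.60 without mouse 2 of the sedentary PBMT group.

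In fatigued control mice Arrdc2 ran from 25.2 through 97.4 to 110 CPM, all 6 below every sedentary control, so that these groups did not overlap. The log2 fold change of fatigued against sedentary control mice was −0.80 (SE 0.417) for Arrdc2. With PBMT the same contrast gave −0.21 (SE 0.415), and only 2 of 6 fatigued mice lay below every sedentary one. It was −0.42 without fatigued PBMT mouse 1 and 0.04 without sedentary PBMT mouse 5. Fatigued PBMT mice covered 29.9 to 124 CPM with a median of 66.0, across nearly the whole fatigued control range, and their log2 fold change against fatigued control was −0.18 (SE 0.44). That value was −0.40 without fatigued PBMT mouse 1 and −0.02 without fatigued PBMT mouse 5. Within each group but sedentary control the highest mouse was several times the lowest, and the coefficient of variation of Arrdc2 was 54.4% in sedentary PBMT, 40.1% in fatigued control and 58.0% in fatigued PBMT against 22.0% in sedentary control mice.

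Arrdc3 (ENSMUSG00000074794, chr13:80883384-80896042, plus strand), an adaptor that carries beta-adrenergic receptors into endosomes and is linked to body mass and energy expenditure, was placed much as Arrdc2 was. Its levels in sedentary control mice were 66.7, 90.1 and 113 CPM (lowest, median, highest) and in sedentary PBMT mice 43.5, 66.3 and 89.6 CPM. The PBMT mice lay lower as a group, with 3 of 6 below every control and the rest inside the control range. The log2 fold change of Arrdc3 was −0.48 (SE 0.176). Fatigued control mice had 23.3, 56.4 and 94.5 CPM and fatigued PBMT mice 30.8, 59.3 and 104 CPM, and these groups overlapped almost completely, with a log2 fold change of 0.10 (SE 0.399). That value was −0.10 without fatigued PBMT mouse 2 and 0.28 without fatigued control mouse 3. Against sedentary control mice, fatigued control mice differed by −0.62 (SE 0.325), with 4 of 6 below every sedentary mouse. With PBMT this contrast gave −0.05 (SE 0.324) for Arrdc3, with 2 fatigued mice above and 3 below every sedentary one. It was −0.24 without fatigued PBMT mouse 2 and 0.10 without fatigued PBMT mouse 6.

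Arrdc4 (ENSMUSG00000042659, chr7:68736995-68749241, minus strand), the nearest partner of Txnip among Mondo targets and likewise an inhibitor of glucose uptake, did not take the position of Txnip across the groups. Its mean levels were 8.00 ± 2.07 CPM in sedentary control, 7.83 ± 0.661 in sedentary PBMT, 7.75 ± 1.82 in fatigued control and 8.39 ± 2.49 in fatigued PBMT mice. All group ranges of Arrdc4 overlapped, and its log2 fold changes with PBMT were −0.02 (SE 0.132) in sedentary and 0.12 (SE 0.201) in fatigued mice. In sedentary control mice the value of 12.0 CPM belonged to mouse 4, the same mouse that was highest for Txnip. Without it the log2 fold change of Arrdc4 with PBMT was 0.12, and without sedentary control mouse 2 it was −0.08. Arrdc1 (ENSMUSG00000026972, chr2:24925352-24935252, minus strand), which recruits the budding machinery that releases vesicles from the plasma membrane, was the least abundant member, with group means of 2.09 to 2.44 CPM. Its 4 group ranges overlapped, and its log2 fold change with PBMT was 0.01 (SE 0.188) in sedentary and 0.22 (SE 0.162) in fatigued mice, the latter 0.15 without fatigued control mouse 1.

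Among the glucose-sensing factors, Mlxip (ENSMUSG00000038342, chr5:123394798-123457932, plus strand) was read at 97.1, 114 and 126 CPM in sedentary control, 91.9, 117 and 125 in sedentary PBMT, 74.9, 87.0 and 119 in fatigued control and 75.9, 84.9 and 108 CPM in fatigued PBMT mice (lowest, median, highest). PBMT and control mice overlapped within each exercise state, with the sedentary PBMT mouse at 91.9 CPM below every control, whereas fatigued mice lay lower, with 4 of 6 fatigued mice below every sedentary mouse of the same treatment in each case. The log2 fold changes of Mlxip were 0.03 (SE 0.0827) and −0.05 (SE 0.135) for PBMT in sedentary and fatigued mice. For fatigued against sedentary mice they were −0.28 (SE 0.115) in controls and −0.35 (SE 0.115) with PBMT.

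Mlxipl (ENSMUSG00000005373, chr5:135089890-135138382, plus strand), better known from liver and fat, had group means of 44.1 to 47.2 CPM and log2 fold changes between −0.09 and 0.10 in the 4 comparisons. Its sedentary PBMT mice were split, 3 above and 2 below every control. Mlx (ENSMUSG00000017801, chr11:101087277-101092207, plus strand), the shared partner of both Mondo factors, ran from 7.11 to 9.97 CPM over all 24 mice. Its mean was 8.80 ± 0.966 CPM in sedentary control and 8.02 ± 0.436 in fatigued control, and 8.93 ± 0.66 in sedentary PBMT and 7.79 ± 0.519 in fatigued PBMT mice. The log2 fold changes of Mlx for fatigued against sedentary mice were −0.13 (SE 0.078) in controls and −0.20 (SE 0.078) with PBMT, where 4 of 6 fatigued mice lay below every sedentary one. Mlx shares 385 bp with Psmc3ip on the opposite strand, which was listed at a mean of 1.34 CPM.

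**Figure D2:**
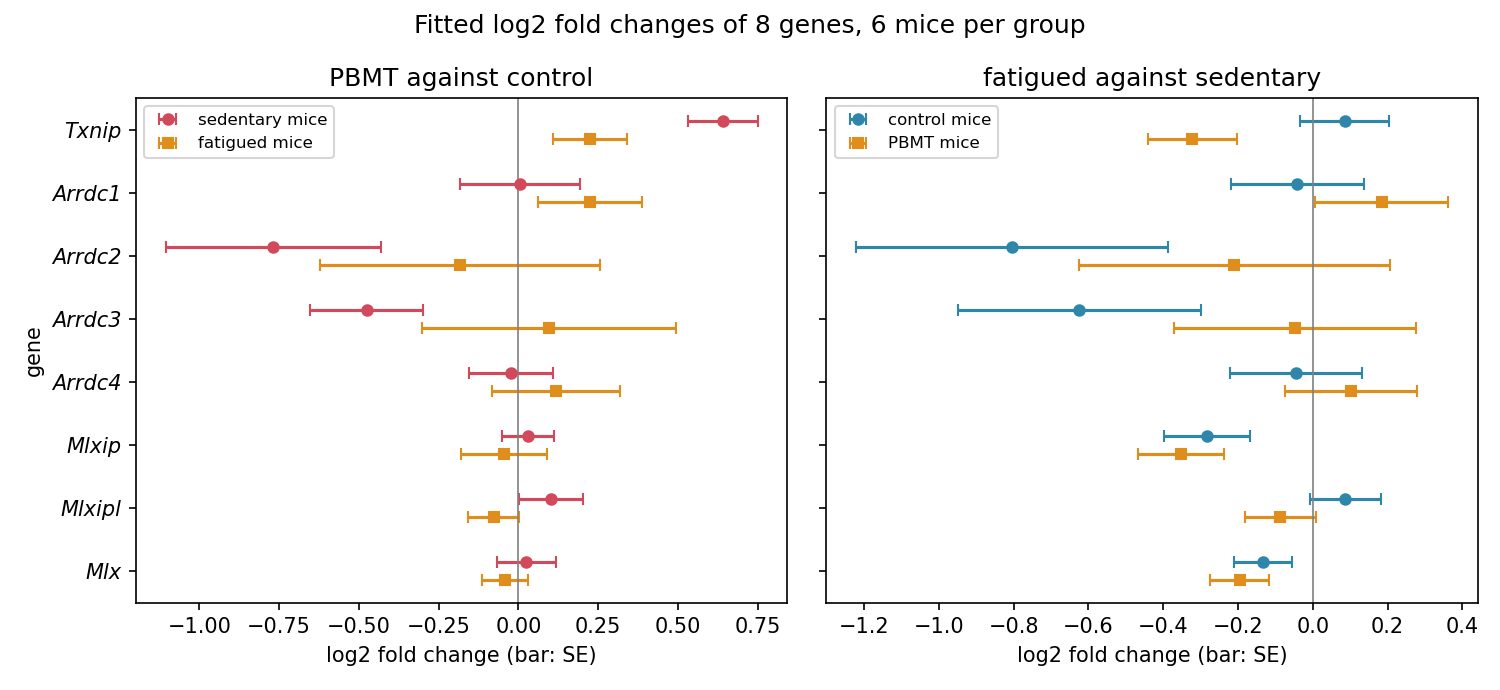
Log2 fold changes (horizontal axis) of the 8 genes with their SE (bars), for PBMT against control in sedentary and fatigued mice and for fatigued against sedentary mice in controls and with PBMT, 6 mice per group. Txnip stands at 0.64 for PBMT in sedentary mice, where Arrdc2 stands at −0.77 and Arrdc3 at −0.48, and the Mondo factors lie near 0 in both PBMT comparisons.

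A gene was called where the adjusted p of the edgeR quasi-likelihood test fell under 0.05 over all genes tested. For PBMT against control in sedentary mice 0 of the 8 members were called, beside 0.0282% of all 14177 genes tested, and 0 had groups that did not overlap, beside 0.48% of all genes. In fatigued mice 0 of 8 were called, beside 0% of 14574 genes, and 0 had groups that did not overlap, beside 0.0274%. At an unadjusted p under 0.05 there were 3 members in sedentary and 0 in fatigued mice, beside 7.63% and 1.58% of all genes, and DESeq2 and voom each called 1 (Txnip) in sedentary and 0 in fatigued mice. For fatigued against sedentary control mice 0 of 8 were called higher, beside 9.10% of 15108 genes, 0 lower, beside 9.49%, and 1 (Arrdc2) had groups that did not overlap, beside 7.70%. At an unadjusted p under 0.05 there was 1 member, beside 32.2% of all genes, DESeq2 called 0 and voom called 1 higher (Txnip) and 3 lower (Arrdc3, Mlxip and Mlx). For fatigued against sedentary mice given PBMT 0 of 8 were called higher, beside 14.1%, 2 (Txnip and Mlxip) were called lower, beside 12.7%, and 0 had groups that did not overlap, beside 11.2%, with 3 members at an unadjusted p under 0.05, beside 37.6%. For that contrast DESeq2 called 2 lower and voom 3 (Mlx as well). With no filter 1 (Mlxip) was called, and 0 without fatigued PBMT mouse 1, 3 or 5 or sedentary PBMT mouse 4 or 6. For the difference of the 2 PBMT effects 0 of 8 were called, beside 0.00662%, with 1 member at an unadjusted p under 0.05, beside 4.4% of all genes, and 0 by DESeq2 or voom. Nothing is read from these counts, because the members were chosen with the same values in view. The median log2 fold change of the 8 members was 0.02 for PBMT in sedentary and 0.03 in fatigued mice, and −0.09 and −0.14 for fatigued against sedentary mice in controls and with PBMT. Over all genes tested these medians were 0.00, 0.00, −0.01 and 0.00.

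Variation from mouse to mouse was compared between members as log2 CPM minus the mean of the own group over the 24 mice, and some pairs went together while others had r near 0. Arrdc2 and Arrdc3 moved most closely among the 28 pairs (Pearson r = 0.836, Spearman rho = 0.79), with r = 0.658 over the 12 sedentary and 0.928 over the 12 fatigued mice and r = 0.779 without the 2 mice farthest from the median for Arrdc2. Within single groups of 6 mice r was 0.918 in sedentary PBMT, 0.911 in fatigued control and 0.941 in fatigued PBMT mice, but −0.411 in sedentary control mice, where mouse 4 was highest for Arrdc2 and lowest for Arrdc3. Txnip and Arrdc4 followed with r = 0.691 (rho = 0.617), 0.754 in sedentary and 0.674 in fatigued mice. Within the 6 sedentary PBMT mice it was 0.151. The relation of Txnip and Arrdc4 leaned on 2 mice, sedentary control 4 at the top and fatigued PBMT 1 at the bottom, and r was 0.417 without them. Arrdc4 ran opposite to Arrdc3 (r = −0.695, rho = −0.609), with r = −0.429 in sedentary and −0.78 in fatigued mice. Between Arrdc4 and Arrdc2 r was −0.597 (rho = −0.517), with −0.888 in fatigued and −0.00518 in sedentary mice, the latter made up of −0.576 in PBMT and 0.606 in control mice. Of Txnip with the factors that drive it, r was 0.216 with Mlxip, 0.0449 with Mlxipl and −0.441 with Mlx. With Mlx it was −0.674 in sedentary and −0.131 in fatigued mice, and −0.0518 without the 2 mice farthest from the median for Txnip. With Mlxip it ran from −0.635 in fatigued control to 0.71 in fatigued PBMT mice. With Mlxipl it ran from −0.724 in fatigued control to 0.667 in sedentary control mice, and was −0.358 without the same 2 mice. These r are descriptions with no p, and all values of a mouse share 1 library and its scaling.

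**Figure D3:**
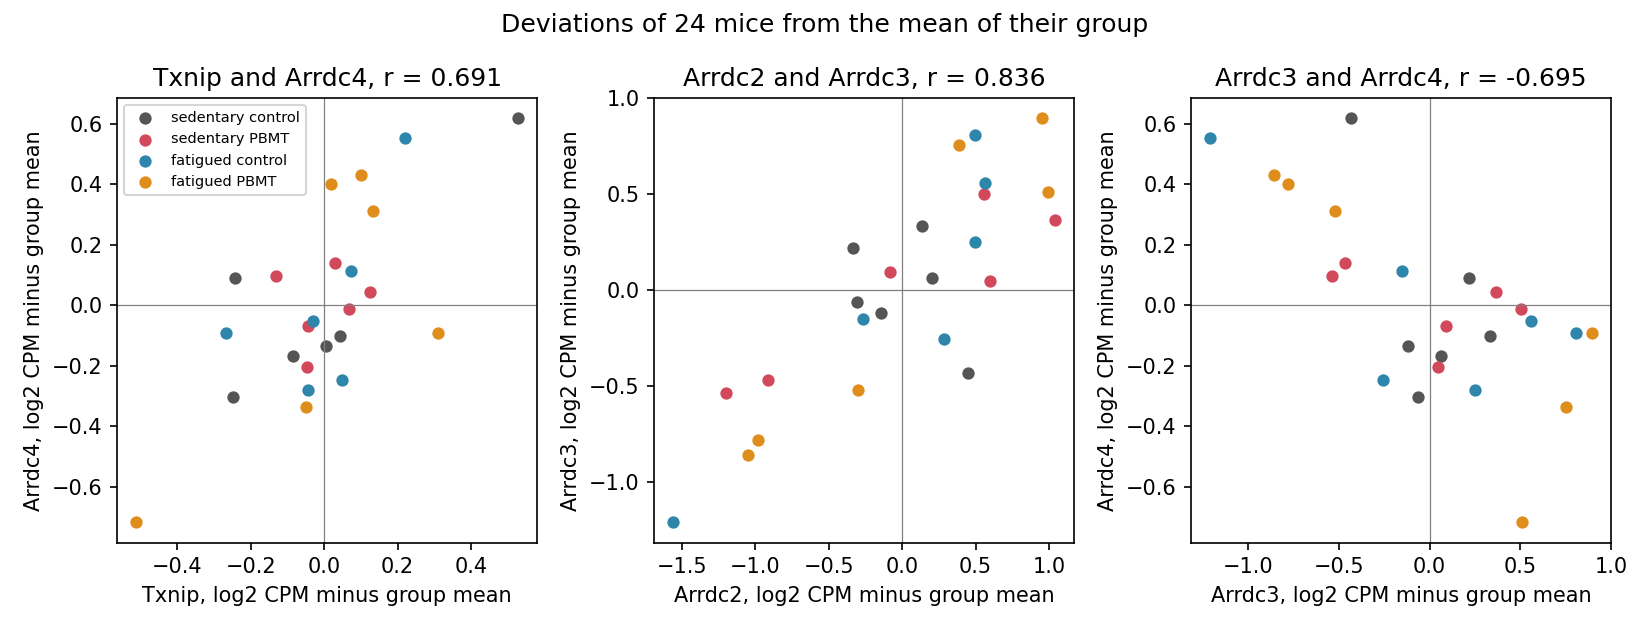
Log2 CPM minus the mean of the own group in each of 24 mice (points, colored by group) for Txnip and Arrdc4, Arrdc2 and Arrdc3, and Arrdc3 and Arrdc4. Arrdc2 and Arrdc3 go together over all mice (r = 0.836), Arrdc3 and Arrdc4 run opposite (r = −0.695), and the slope of Txnip and Arrdc4 (r = 0.691) leans on the mouse at each end.

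On the same scale, the genes most like each member were taken from 11727 genes with a mean of at least 1 CPM. Those most like Txnip were Bend3 (r = 0.794), Arhgef2 (0.737), Ptk2 (0.734), Cep170b (0.726) and Stk40 (0.717). None of these 5 had a log2 fold change above 0.13 for PBMT in sedentary mice, where that of Txnip was 0.64. Arrdc2 was most like Acvr1b (r = 0.928), an activin receptor, Qars (0.921) and Mn1 (0.915), and Arrdc3 was most like Pde4b (0.946), a phosphodiesterase that degrades cAMP, Usp54 (0.936) and again Acvr1b (0.929). Arrdc4 was most like Adcy6 (r = 0.901), an adenylyl cyclase that makes cAMP, Dock6 (0.873) and Osbpl7 (0.863). Mlxip was most like Lig3 (0.828) and Kdm1b (0.826). The r of the 3 genes most like each of the other members ran from 0.693 to 0.834: St8sia5, Adamtsl5 and Rnf157 for Mlxipl, Ost4, 1110019D14Rik and Rpl39 for Mlx, and Sft2d2, Fuk and Ssh3 for Arrdc1. The within-group r behind these values differed, from −0.0286 to 0.946 over the 4 groups for Arhgef2 and Txnip, from 0.176 to 0.986 for Acvr1b and Arrdc2, and from 0.921 to 0.962 for Usp54 and Arrdc3.

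The promoters of Txnip and Arrdc4, both Mondo targets, whose r of 0.691 leaned on 2 mice, and those of Arrdc2 and Arrdc3, which varied together in 3 of the 4 groups, are shown for the letters they hold. RefSeq windows from 250 bases before to 50 bases after the start (GRCm38.p6) were matched for all 8 members and searched on both strands for the E box CACGTG (in 7.15% of the 32851 promoters of this length), the CCAAT box (letters CCAAT, 37.4%) and the forkhead site GTAAACA (3.65%). A carbohydrate response element is a pair of E box-like letters spaced by 5 bases. Its form CACGNG, 5 bases of any kind and CACGNG again, which can overlap the E box, was added after the Txnip sequence had been read and occurs in 16 promoters (0.0487%). The more common pairs of CANNTG with CANNTG (0.767%) and of CACGTG with CANNTG (0.067%), also 5 bases apart, matched no member. Capitals mark matches on either strand, all bases lie before the RefSeq start, and sequences read 5′ to 3′ on the strand of the gene.
Txnip, chr3:96557812-96557902, plus strand: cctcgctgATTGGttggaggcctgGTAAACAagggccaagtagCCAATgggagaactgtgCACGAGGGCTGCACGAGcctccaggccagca
Arrdc4, chr7:68749278-68749488, minus strand: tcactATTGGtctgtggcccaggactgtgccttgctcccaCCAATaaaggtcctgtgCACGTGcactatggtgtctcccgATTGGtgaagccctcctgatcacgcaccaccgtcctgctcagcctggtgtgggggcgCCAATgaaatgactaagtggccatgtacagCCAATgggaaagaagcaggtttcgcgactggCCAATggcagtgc
Arrdc2, chr8:70839721-70839855, minus strand: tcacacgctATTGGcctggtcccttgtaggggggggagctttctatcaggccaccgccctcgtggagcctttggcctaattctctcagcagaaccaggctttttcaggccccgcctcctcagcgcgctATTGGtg
Arrdc3, chr13:80883204-80883264, plus strand: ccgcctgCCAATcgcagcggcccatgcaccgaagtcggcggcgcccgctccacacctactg

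The Txnip promoter held a forkhead site at −121 between CCAAT boxes at −137 and −102, and the carbohydrate response element form at −85. No other member promoter held the forkhead site or that form. Arrdc4 held 6 CCAAT boxes and an E box at −193, Arrdc2 held 3 CCAAT boxes, of which 2 lie in the stretch shown, and Arrdc3 held 1. Promoters of Mlx and, at its upstream start, Mlxipl held an E box as well, at −40 and −98. CCAAT boxes also lay in the promoters of Mlxip (−246 and −48), Mlx (−146 and −55) and, at its upstream start, Mlxipl (−173). A match is a run of letters and not a shown site, and the absence of a match covers these windows only.

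Genes around Txnip and its regulators were counted from 8 lists with 95 genes in all, of which 87 were tested in each comparison. For PBMT against control 0 of the 87 were called in sedentary mice (edgeR), with 22 at an unadjusted p under 0.05 (7.63% of all genes), 2 called by DESeq2 and 3 by voom. In fatigued mice 0 of 87 were called, with 1 at an unadjusted p under 0.05 (1.58% of all genes) and 0 by DESeq2 or voom. For the difference of the 2 PBMT effects 0 were called, with 11 at an unadjusted p under 0.05 (4.4% of all genes) and 0 by DESeq2 or voom. Fatigued control mice had 16 of 87 called higher and 9 lower than sedentary control mice (28.7% of the lists, against 18.6% of all genes tested). With total counts in place of TMM scaling the split was 15 higher and 16 lower, beside 977 and 2166 over all genes in place of 1375 and 1434. Fatigued PBMT mice had 25 called higher and 15 lower than sedentary PBMT mice (46.0%, against 26.8%). The values that follow for single genes are log2 fold changes with edgeR adjusted p over all genes, for fatigued against sedentary control mice unless stated. Each call of a list gene in fatigued against sedentary mice was repeated under 20 alternatives, 12 of them with 1 mouse left out. A list gene named below for such a call kept it in all 20 unless a loss is stated.

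Mondo targets other than the members stood on both sides. Of 19 tested, 2 were called higher and 2 lower in fatigued control mice, and 6 and 2 in fatigued PBMT mice. Hk2, the hexokinase that traps glucose in muscle as glucose 6-phosphate, was read at 363 to 703 CPM in sedentary control mice (median 428) and 598 to 1100 CPM in fatigued control mice (median 855). Hk2 rose by 0.90 (adjusted p = 0.00274), with 5 of 6 fatigued mice above every sedentary one. Pfkfb3, which makes the activator of glycolytic phosphofructokinase, fell from 215 to 325 CPM (median 261) in sedentary to 54.6 to 100 CPM (median 69.1) in fatigued control mice. All 6 fatigued mice lay below every sedentary one, and the log2 fold change was −1.86 (adjusted p = 7.37e-06). The lipogenic enzyme Fasn rose by 0.82 (adjusted p = 0.0234) and the repressor Bhlhe40 fell, with −0.63 (adjusted p = 0.00387). With PBMT the same contrast gave 1.26 for Hk2 and −2.04 for Pfkfb3 (adjusted p = 6.83e-05 and 9.27e-07), 0.89 for Fasn (0.0103), −0.56 for Bhlhe40 (0.00597), 1.46 for Rgs16 (0.0034) and 0.45 for Acly (0.00359). Fasn lost its call in controls in 6 of the 20 alternatives, among them without fatigued control mouse 1 or 6 or sedentary control mouse 5 or 6 (highest adjusted p = 0.0602).

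For PBMT in sedentary mice the smallest p in that list belonged to Bhlhe40, which ran from 88.7 to 120 CPM in controls and, with no overlap before rounding, from 120 to 159 CPM with PBMT. Its log2 fold change was 0.44 (SE 0.0854) and was not called by edgeR (adjusted p = 0.0896), but was called by DESeq2 (0.00185), by voom (0.0277), by edgeR with no filter (0.0286) and by edgeR without sedentary PBMT mouse 5 (0.0316). Pfkfb3 was not called either (0.59, adjusted p = 0.46). In fatigued mice Bhlhe40 had 0.51 and Rgs16 0.76, neither called (adjusted p = 1.00 for each).

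Glucose entry and the handling of glucose 6-phosphate, the signal that Mondo factors read, had 4 of 15 genes called higher and 0 lower in fatigued control mice, and 5 and 1 in fatigued PBMT mice. Besides Hk2 these included, in controls, the hexokinase Hk1 (0.72, adjusted p = 6.19e-05) and the basal glucose transporter Slc2a1 (0.54, adjusted p = 0.00993). With PBMT Hk1 and Slc2a1 had 0.85 and 0.99 (adjusted p = 4.34e-06 and 1.51e-05), and the transporter Slc2a12 fell, with −0.61 (adjusted p = 0.00189). For PBMT against control the genes with the smallest p in this list were Slc37a4 (−0.15, adjusted p = 0.638) and Slc2a3 (0.48, adjusted p = 0.648) in sedentary mice and Slc2a1 (0.31) and Hk2 (0.34, adjusted p = 1.00 for each) in fatigued mice, none called.

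The thioredoxin system, whose active thiols Txnip binds, had 2 of 12 genes called higher and 2 lower in fatigued control mice, and 2 and 1 in fatigued PBMT mice. Srxn1, which repairs overoxidized peroxiredoxins, ran from 24.7 to 31.8 CPM in sedentary and from 56.3 to 145 CPM in fatigued control mice. Every fatigued control mouse lay above every sedentary one, with a log2 fold change of 1.66 (adjusted p = 1.59e-05), and with PBMT it was 1.96 (adjusted p = 9.56e-07). The thioredoxin reductase Txnrd1 rose by 0.35 and, with PBMT, 0.33 (adjusted p = 0.0186 and 0.0198), and the peroxiredoxin Prdx1 fell, with −0.25 and −0.28 (adjusted p = 0.0179 and 0.00538). Prdx2 fell in controls, with −0.31 (adjusted p = 0.0261). In controls Txnrd1 lost its call in 2 alternatives, 1 of them without fatigued control mouse 5 (highest adjusted p = 0.0617), and Prdx1 in 3, among them without fatigued control mouse 6 or sedentary control mouse 3 (0.0741). Prdx2 lost it in 5, without fatigued control mouse 1, 2 or 6 or sedentary control mouse 3 or 4 (0.0877), and with PBMT Txnrd1 lost its call without fatigued PBMT mouse 6 (adjusted p = 0.0586). For PBMT 0 were called, and those with the smallest p were Prdx2 (−0.24) and Prdx5 (−0.26) in sedentary mice (adjusted p = 0.632 and 0.64) and Txnrd3 (0.13) and Prdx6 (0.05) in fatigued mice (adjusted p = 1.00 for each).

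Nedd4 family ligases, the enzymes that ARRDC adaptors recruit, had 1 of 8 called higher and 0 lower in fatigued control mice, and 3 and 4 in fatigued PBMT mice. Nedd4l rose by 0.44 in controls and by 0.58 with PBMT (adjusted p = 0.000478 and 1.07e-05), with all 6 fatigued mice above every sedentary one in each case. With PBMT, Hecw2 (0.65, adjusted p = 0.00186) and Wwp2 (0.21, adjusted p = 0.0314) were also higher. Wwp1 (−0.48), Nedd4 (−0.27), Itch (−0.27), the ligase known for acting on Txnip itself, and Smurf1 (−0.26) were lower (adjusted p = 0.00226, 0.0265, 0.0477 and 0.0145). Of these, Itch lost its call in 14 alternatives, among them without fatigued PBMT mouse 1, 3, 4 or 5 or any 1 sedentary PBMT mouse other than number 2 (highest adjusted p = 0.143). Nedd4 lost it in 8, without fatigued PBMT mouse 1, 3 or 5 or any 1 sedentary PBMT mouse other than number 2 (0.0761), Wwp2 in 6, among them without mouse 1 or 5 of the fatigued or 1 or 3 of the sedentary PBMT mice (0.0826), and Smurf1 without fatigued PBMT mouse 6 (0.0571). For PBMT in sedentary mice Hecw2 had −0.55 (adjusted p = 0.349) and Nedd4 0.22 (adjusted p = 0.639), not called by edgeR, and voom called Hecw2 (adjusted p = 0.0482). In fatigued mice Smurf1 (−0.11) and Hecw2 (−0.12) had the smallest p (adjusted p = 1.00 for each).

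Other arrestin-fold genes, which include the beta-arrestins and the Vps26 subunits of retromer-type sorting complexes, had 0 of 5 called in fatigued control mice, where Vps26c (−0.19, adjusted p = 0.0589) and Vps26b (−0.13, adjusted p = 0.145) had the smallest p. With PBMT, Vps26b and Vps26c were called lower, both with −0.19 (adjusted p = 0.0258 and 0.0434). Vps26b lost its call in 7 alternatives, among them without fatigued PBMT mouse 5 or 6 or sedentary PBMT mouse 3, 4, 5 or 6 (highest adjusted p = 0.0915). Vps26c lost it in 12, among them without fatigued PBMT mouse 1, 3, 4 or 6 or the same sedentary mice (0.17). Arrdc5, the remaining ARRDC gene, was listed at 0 in most mice and at most at 0.022 CPM. For PBMT against control Vps26c (0.06) and Arrb1 (0.09) in sedentary mice (adjusted p = 0.832 for each) and Vps26b (−0.06) and Vps26c (0.06) in fatigued mice (adjusted p = 1.00 for each) were not called.

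The Max network, which shares binding letters and partners with Mlx, had 2 of 8 called higher and 1 lower in fatigued control mice, and 3 and 2 in fatigued PBMT mice. The repressor Mnt, a partner of both Max and Mlx, rose by 0.68 in controls and 1.01 with PBMT (adjusted p = 0.00085 and 4.8e-06), with all 6 fatigued mice above every sedentary one. Myc, a growth-related factor of the same network, rose by 0.84 and 1.20 (adjusted p = 0.0263 and 0.00138), and the Myc antagonist Mxd1 fell, with −0.49 and −0.43 (adjusted p = 0.00779 and 0.0124). Max (0.45, adjusted p = 0.000239) and Mxi1 (−0.21, adjusted p = 0.0435) were called with PBMT. Mxi1 lost that call in 13 alternatives, among them without any 1 fatigued PBMT mouse other than number 1 or any 1 sedentary PBMT mouse other than number 2 (highest adjusted p = 0.113). Myc lost its call in controls in 5, among them without fatigued control mouse 6 or sedentary control mouse 2, 5 or 6 (0.0882). In sedentary mice PBMT gave −0.27 for Max and −0.25 for Mxd4 (adjusted p = 0.349 and 0.383), and in fatigued mice 0.21 for Mnt and 0.49 for Myc (adjusted p = 1.00 for each), none called.

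Glucocorticoid-responsive genes, a program known to reach Txnip as well, had 6 of 14 called higher and 3 lower in fatigued control mice, and 7 and 1 in fatigued PBMT mice. Mt1, a metal-binding metallothionein, ran from 16.7 to 32.5 CPM in sedentary and from 61.5 to 115 CPM in fatigued control mice, without overlap. Its log2 fold change was 1.66 in controls and 2.79 with PBMT (adjusted p = 0.000119 and 1.83e-07), beside 1.96 and 3.24 for Mt2 (0.00131 and 7.62e-06), 1.65 and 1.57 for the lipase inhibitor Angptl4 (0.000476 and 0.000394), and 0.90 and 1.65 for the transcription factor Zbtb16 (0.000696 and 3.33e-07). The growth inhibitor Ddit4 fell, with −1.66 (adjusted p = 0.0327), Cebpd with −0.93 (adjusted p = 0.0497), and the kinase Sgk1 with −0.66 in controls and −0.47 with PBMT (adjusted p = 0.00101 and 0.00966). Ddit4 lost its call in 6 alternatives, among them without fatigued control mouse 1, 2, 5 or 6 or sedentary control mouse 6 (highest adjusted p = 0.0776), and Cebpd in 15, among them without any 1 control mouse other than sedentary number 2 (0.128).

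For PBMT in sedentary mice 12 of these 14 genes had log2 fold changes below 0 and 2 above, with a median of −0.40 against 0.00 over all genes tested, and 0 were called by edgeR. Zbtb16 ran from 46.4 to 74.8 CPM in sedentary control and from 36.8 to 45.3 CPM in sedentary PBMT mice, without overlap. Its log2 fold change of −0.44 was not called by edgeR (adjusted p = 0.168) but was called by DESeq2 (0.0156) and voom (0.0353), and Tsc22d3 had −0.39 (adjusted p = 0.349). In fatigued mice 12 of the 14 stood above 0 and 2 below with a median of 0.09, and the smallest p belonged to Mt1 (0.55) and Sgk1 (0.28, adjusted p = 1.00 for each). The difference of the 2 PBMT effects, fatigued minus sedentary, was above 0 for 13 of the 14, with 0.75 for Zbtb16 and 1.13 for Mt1, not called (adjusted p = 0.946 for each).

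Of the 7 tested subunits of AMP-activated protein kinase, the energy sensor that phosphorylates Txnip for degradation, Prkag1 was called lower in fatigued control mice (−0.21, adjusted p = 0.0307). The catalytic subunits Prkaa2 (−0.52, adjusted p = 0.00258) and Prkaa1 (−0.30, adjusted p = 0.0105) were called lower in fatigued PBMT mice. Prkag1 lost its call in 7 alternatives, among them without fatigued control mouse 3, 4, 5 or 6 or sedentary control mouse 3 or 5 (highest adjusted p = 0.116). For PBMT against control 0 were called, with Prkag1 (−0.16) and Prkaa1 (0.22) nearest in sedentary mice (adjusted p = 0.638 and 0.64) and Prkag3 (0.16) and Prkaa1 (−0.08) in fatigued mice (adjusted p = 1.00 for each).

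The cellular makeup of the samples was read from marker sums. The 8 muscle fiber markers summed to 106000 ± 14000 CPM in sedentary control, 112000 ± 8910 in sedentary PBMT, 144000 ± 12100 in fatigued control and 142000 ± 12800 CPM in fatigued PBMT mice, led by the fast myosin Myh4 in every group. Of these 8 markers 4 were called higher in fatigued control and 3 in fatigued PBMT mice, and the mean fiber sum was higher in the fatigued mice. The markers did not move alike. Mean Myh4 was 26200 CPM in sedentary and 47600 CPM in fatigued control mice, and mean Myh2 was 813 and 599 CPM. In fatigued PBMT mice 3 of 5 myeloid, 2 of 5 endothelial, 1 of 4 tendon and 1 of 7 adipocyte markers were called higher as well, beside 14.1% of all genes. Some of these calls lay near the threshold, with edgeR adjusted p of 0.0454 for Adgre1, 0.0471 for Cd68, 0.042 for Fmod and 0.0326 for Cidec. In fatigued control mice 1 of 5 endothelial markers was called higher, beside 9.10%. Krt10 was called lower by edgeR in fatigued PBMT mice (log2 fold change −1.52, adjusted p = 0.00493). Sedentary PBMT mice had a median of 2.49 and a highest value of 14.0 CPM of Krt10, against a median of 1.69 CPM in fatigued PBMT mice. All calls of markers are given for the main fit only. The 5 myeloid markers, led by Lyz2, summed to means of 53.8 CPM in sedentary control, 36.0 in sedentary PBMT, 58.9 in fatigued control and 61.6 in fatigued PBMT mice. Endothelial markers, led by Cdh5, summed to 242, 257, 286 and 301 CPM and tendon markers, led by Fmod, to 86.9, 90.7, 163 and 196 CPM in the same order, and all markers of these 3 lists were present in every mouse. Fatigued PBMT mouse 5, which stood apart over all genes, had the highest sum of its group for each of the 3, with 122 CPM for myeloid and 497 for tendon markers. The group medians were 50.3 and 147 CPM, below the 58.3 and 166 of fatigued control mice. Fatigued PBMT mouse 5 was also highest in its group for the sums of adipocyte (391 CPM) and erythrocyte markers (124 CPM). The sedentary control mouse with the highest Txnip, number 4, also had the highest fiber sum of its group, 133000 CPM. It had the highest erythrocyte sum of that group as well, 156 CPM against a median of 93.1 CPM. The sum with the largest ratio between group means was that of 5 keratinocyte markers, 2.86 CPM in sedentary control, 7.23 in sedentary PBMT, 2.18 in fatigued control and 1.65 in fatigued PBMT mice, most of it Krt10. A single sedentary PBMT mouse, number 4, carried 25.6 CPM of it against a group median of 2.51, and Krt10 was the 1 marker of the 5 that passed the filter, with Krt15 at 0 in all fatigued mice and Krt1 at 0 in all fatigued PBMT mice. Adipocyte markers, of interest for Mlxipl, summed to 242, 236, 256 and 268 CPM in the order of groups above, with all 7 present in every mouse and Fabp4 most abundant. The part of fiber content and of these other cells in the levels of the members was not tested.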

How the data were processed

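Poly(A)-selected, directional, paired-end RNA libraries of 24 mice were used. As deposited by the authors, each file holds whole-number counts per gene for 1 mouse, with no normalization. The submitters' processing notes name STAR 2.7.1a, StringTie 2.0.4, featureCounts 1.6.0, HTSeq and GRCm38; which tool made the counts and the strand setting are not given in the sources used here. Of 55487 IDs, 55227 matched GENCODE M21 (GRCm38), which gave symbols, positions and exon lengths. The members and lists were chosen with earlier results of these data known. In R 4.3.3 with edgeR 4.0.16, counts were TMM-normalized, filtered with filterByExpr (minimum count 10) and tested two-sided with robust quasi-likelihood fits and Benjamini-Hochberg adjustment over all genes at 0.05, a procedure also tested on simulated data. PBMT was compared with control within each project (12 mice), other contrasts in 1 fit to 24 mice. Log2 CPM used a prior count of 2. Members have no p. Genes named are the members, up to 4 called genes per list, comparison and direction (otherwise the 2 with the smallest p), the genes most alike and markers. No pair of mice within a group agreed within sampling noise (chi-square per gene at least 13.4, about 1 if they did). Alternatives were the size factors of DESeq2, total counts, no filter, at least 10 counts in every mouse, DESeq2 1.42.0, limma 3.58.1 voom with quality weights, a replicate block, other mice in the fit, and leaving out each mouse. Whether the counts are of reads or of read pairs is not given in the sources used here.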

Additional observations from a re-analysis of the deposited data

Results flagged for a closer look

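In 4 of the 32 sets of 6 mice (8 members in 4 groups) a single mouse lay far from the other 5, by the gap to its nearest neighbor as a share of the whole range; chance alone does this in about 1 set of 20. Txnip was at 674 CPM in sedentary control mouse 4, against 393 to 482 CPM in the other 5 mice of its group. The same mouse had 12.0 CPM of Arrdc4, against 6.32 to 8.31 CPM in the other 5. Sedentary PBMT mouse 2 had 1.29 CPM of Arrdc1, against 2.21 to 2.40 CPM in the other 5, and 91.9 CPM of Mlxip, against 113 to 125 CPM. The source of these values was not tested.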

How the results depend on the processing

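For PBMT against control in sedentary mice 4 genes were called, against 16 with no filter, 60 with DESeq2, 50 with voom and quality weights and 1 with all 24 mice in 1 model, and between 2 and 20 with a mouse left out (2 without sedentary control mouse 1, 2 or 6, 18 without sedentary control mouse 4, and 10, 7 and 20 without sedentary PBMT mouse 2, 4 and 5). The 87 pathway genes gave 0 calls, against 1 with no filter, 2 with DESeq2, 3 with voom and 0 to 1 with a mouse left out (1 without sedentary PBMT mouse 5). In fatigued mice 0 genes were called, and 2 with DESeq2. Fatigued against sedentary control mice gave 2809 calls, and 4945 with voom. The difference of the PBMT effects gave 1 call, and 1 to 3 with a mouse left out, 3 without sedentary PBMT mouse 2. The cause of these shifts was not tested. Nothing in the labels ties mice of the same replicate number, and they were not taken as pairs: same-numbered PBMT and control mice correlated at −0.0715 to 0.0664 in sedentary and −0.0846 to 0.325 in fatigued mice, and 1 of 6 and 3 of 6 correlated best with their own number. With a replicate block 11 genes were called for PBMT in sedentary and 1 in fatigued mice. Of the 8 members, 1 (Txnip) was called for PBMT in sedentary mice with no filter, DESeq2, voom or the replicate block, and without sedentary control mouse 4 or sedentary PBMT mouse 2. For fatigued against sedentary control mice 0 were called, but 4 with voom, 1 with total counts and 1 without mouse 4 of either group. With PBMT, 2 members were called in fatigued against sedentary mice, 3 with voom, 1 (Mlxip) with no filter, 0 without fatigued mouse 1, 3 or 5 or sedentary mouse 4 or 6, and 1 without fatigued mouse 6 or sedentary mouse 1, 3 or 5. Nothing is read from these calls of members. Of the 32 log2 fold changes of members, 0 moved by more than 1 SD between mice and 10 changed sign in some alternative, all with a size of at most 0.21. Leaving out 1 of 6 mice can hardly shift a group mean by 1 SD, so for those alternatives the 0 is no sign of stability. For PBMT in sedentary mice, Arrdc2 ran from −1.02 to −0.60 with a mouse left out. Of the pathway calls in fatigued against sedentary mice, 16 of 25 in controls and 29 of 40 with PBMT were kept in all 20 alternatives, and 0 changed sign.

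Limits are 6 mice per group, treadmill times that differed between fatigued mice, the strand setting, which bears on Txnip and Mlx, and exercise and sequencing project, which cannot be told apart. Depth limits Arrdc1 most, at 63 counts in its lowest mouse.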
